A study of Mus musculus with 12 samples.

Results

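The kinesins, tubulins and neuronal microtubule proteins were taken from the table by gene name: the numbered Kif genes, the numbered alpha- and beta-tubulin genes (Tuba, Tubb), the stathmins (Stmn1 to Stmn4), the microtubule-associated proteins Map1a, Map1b, Map2, Map4 and Mapt, the doublecortin genes Dcx and Dclk1, the CRMP genes Dpysl2 to Dpysl5, and Gap43. The rule found 69 of the 55487 genes listed, of which 59 passed a filter of at least 1 TPM in at least 3 libraries and were tested. Dpysl5, Kif5a, Kif19a, Kif26b, Tuba8, Stmn3 and Stmn4 passed it only with the FIBCL libraries counted, so the counts of members higher in FIBCL hold genes that the filter kept for their level there. Microtubules are polymers of alpha- and beta-tubulin. In dividing cells they form the spindle, where mitotic kinesins separate poles, move chromosomes and build the cleavage furrow. In neurons, which no longer divide, they run as tracks along the axon: transport kinesins carry vesicles and organelles outwards on them, while MAPs, stathmins and CRMPs set how stable they are.

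RNA was sequenced from cultured mouse cochlear glial cells taken at postnatal day 4, on a mixed C57Bl6 and FVB/N background, with 3 libraries that the labels call biological replicates in each of 4 groups. Spheres, the starting population, were grown in DMEM/F12 with B27, N2, heparan sulfate, 20 ng/ml EGF, 10 ng/ml bFGF and 50 ng/ml IGF. SCDM, the control differentiation medium, held DMEM/F12, B27, N2 and BDNF and NT3 at 50 ng/ml each, SCDM/FGF added bFGF at 100 ng/ml, and cells of the 3 differentiated groups were analysed after 14 days. FIBCL was Neurobasal medium with B27, N2, bFGF, Forskolin (20 μM, raises cyclic AMP), ISX9 (20 μM), the BET bromodomain inhibitor I-BET (1 μM), the GSK3 inhibitor CHIR99021 (10 μM) and LIF (1000 U/ml); the labels give bFGF in it as both 50 and 100 ng/ml. Base medium, growth factors and small molecules therefore differed together between FIBCL and SCDM, and their shares in a difference cannot be told apart. Tissue from several mice was pooled per dissection, and the columns of the FIBCL libraries carry a name without the final L, so the presence of LIF rests on the sample titles. Nothing beyond the word biological says how the replicates arose, so the p-values measure the spread between these libraries.

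Within each group the libraries correlated at 0.983 or more over log values, and between groups at 0.936 or less. The glial marker Sox10 and the rest of a list of 11 summed to 790.0 to 836 scaled TPM in spheres, 289 to 333 in SCDM, 258 to 304 with SCDM/FGF and 28.7 to 33.7 in FIBCL. Markers of other cells were also present. The 12 mesenchymal markers of a list summed to 5390 to 5540 in spheres, 9290 to 9640 in SCDM, 7780 to 8250 with SCDM/FGF and 922 to 1010 in FIBCL, and 12 macrophage markers to 147 to 188, 1840 to 2050, 2050 to 2230 and 169 to 199 in the same order. Endothelial markers, 7 in all, summed to 109 to 112, 44.0 to 52.0, 267 to 306 and 13.6 to 14.3. Single genes carried much of some sums. Vim held 741 to 834 of the mesenchymal sum in FIBCL, and Twist1 was higher there (101 to 116) than in SCDM (42.4 to 53.7). The endothelial Emcn was at 34.4 to 42.3 in SCDM and 0 in FIBCL, whereas Kdr was at 1.80 to 1.84 and 9.89 to 10.5. A bulk library cannot tell fewer cells of a type from less RNA per cell.

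Levels are given as scaled TPM, a measure of transcript abundance per transcript length brought to a common scale across libraries. Differences are log2 fold changes of scaled TPM + 1, which understate the change of low genes. A gene is said to have risen or fallen where the Benjamini-Hochberg adjusted p from limma was under 0.05 over all 16016 genes tested and the log2 fold change was at least 1 in size.

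Mitotic kinesins were low in FIBCL in all 3 libraries. In FIBCL against SCDM, all 11 tested members of this class of 12 fell and none rose, and their log2 fold changes had a median of -2.89, while 13.2% of all genes tested rose and 16.2% fell, with a median of -0.07. None of the 11 was at 1 TPM or more in all 3 FIBCL libraries, so each passed the filter on low values through the other groups. Kif2b, a depolymerising kinesin of the kinetochore and the remaining member, was listed at 0 in every library. Over all classes, 19 tested members rose and 15 fell in this comparison.

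Kif11 is the tetrameric motor that slides antiparallel microtubules apart to separate the spindle poles. Its scaled TPM was 3.64, 2.26 and 2.96 in spheres, 6.53, 8.19 and 8.61 in SCDM, 5.06, 7.38 and 6.30 with SCDM/FGF, and 0.0598, 0.0246 and 0.0657 in FIBCL. All FIBCL libraries lay far below every other library, and the SCDM libraries lay above every sphere library. Kif11 fell in FIBCL against SCDM (log2 fold change -3.06, SE 0.156, adjusted p = 8.6e-09) and rose in SCDM against spheres (1.16, adjusted p = 8.32e-05). Kif15, a motor that can back up Kif11, ranged from 8.27 to 14.9 in SCDM and from 0.837 to 2.17 in FIBCL, so that it stayed listed above Kif11 there.

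Kif23 and Kif20a work at the central spindle during cytokinesis, Kif23 as the motor of the centralspindlin complex. For Kif23 the scaled TPM was 6.56, 3.79 and 7.69 in spheres, 22.1, 19.5 and 25.6 in SCDM, 9.61, 14.8 and 14.2 with SCDM/FGF, and 0.921, 1.23 and 1.14 in FIBCL. Kif23 had the largest increase of the class from spheres to SCDM (log2 fold change 1.77, SE 0.216, adjusted p = 3.66e-05) and fell by 3.47 on the log2 scale from SCDM to FIBCL (adjusted p = 4.6e-08). Kif20a was listed at 6.32, 6.71 and 6.20 in spheres, 15.5, 21.7 and 19.1 in SCDM, 9.92, 12.8 and 9.55 with SCDM/FGF, and 0.790, 1.05 and 0.604 in FIBCL. The SCDM libraries were the highest and the FIBCL libraries the lowest, without overlap of any pair of groups. Kif20a fell in FIBCL against SCDM (-3.44, SE 0.141, adjusted p = 1.3e-09). Exons on the opposite strand belonging to Cdc23 cover 29.3% of its exon bases, and those of Pdzd11 cover 15.1% of Kif4; the study's methods name an orientation mode for the alignment, but no source used here says that the libraries or the counting kept strand, so a part of these partners' reads in the values of Kif20a and Kif4 was not tested.

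Kif22 and Kif4 are chromokinesins, which bind chromosome arms, and Kif2c depolymerises microtubules at the centromere. The level of Kif22 was 7.39, 6.19 and 5.79 scaled TPM in spheres, 12.9, 14.0 and 13.1 in SCDM, 7.98, 11.4 and 9.07 with SCDM/FGF, and 0.108, 0.222 and 0.0394 in FIBCL. With 1 added to each value, Kif22 had the lowest log2 fold change of the class in FIBCL against SCDM (-3.68, SE 0.128, adjusted p = 3.29e-10). That rank depends on the added 1. Without it, the mean of Kif11 (7.78 to 0.05) fell by a larger factor than that of Kif22 (13.3 to 0.123). Kif2c was listed at 3.42, 3.03 and 3.28 in spheres, 7.07, 8.53 and 9.35 in SCDM, 5.73, 7.18 and 5.11 with SCDM/FGF, and at 0 in every FIBCL library, so that no fold is given; the contrast of its log values, taken after adding 1, was -3.21 (SE 0.124, adjusted p = 7.91e-10). Of the remaining members, Kif14, Kif18a, Kif18b, Kif20b and Kif4, which act in cytokinesis, chromosome alignment and astral microtubule length, none exceeded 1.44 scaled TPM in a FIBCL library, reached by Kif20b, and none was under 1.46 in an SCDM library.

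**Figure D1:**
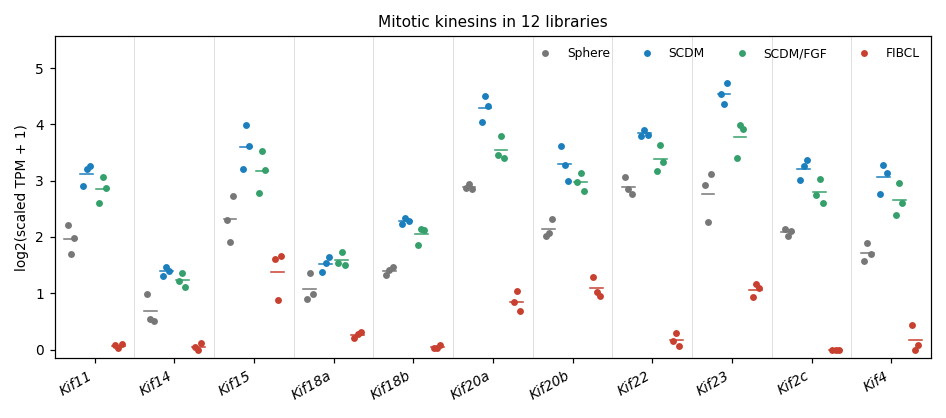
Level of each tested mitotic kinesin as log2(scaled TPM + 1); each point is a library, each bar the mean of 3, and colours mark the groups. For every gene shown the FIBCL points sit below all others and the SCDM points above the sphere points, as for Kif11 (0.0246 to 0.0657 in FIBCL, 6.53 to 8.61 scaled TPM in SCDM).

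By group means the order was SCDM, SCDM/FGF, spheres and FIBCL for every tested member but Kif18a, which was marginally higher in SCDM/FGF than in SCDM. In SCDM against spheres, 7 of 11 rose (Kif11, Kif15, Kif20a, Kif20b, Kif23, Kif2c and Kif4) and none fell, with a median of 1.16, against 6.94% of all genes tested that rose and 5.46% that fell. The other 4 had log2 fold changes of 0.44 (Kif18a) to 0.95 (Kif22), each with an adjusted p of 0.0179 or less, and in all 11 the SCDM libraries lay above the sphere libraries without overlap, as in 28.2% of all genes tested. In SCDM/FGF against spheres only Kif23 rose (1.01, adjusted p = 0.00236) of the 11, and none fell; the median was 0.71, and 7.39% of all genes rose and 4.73% fell. That value lies at the limit, and deposited TPM without rescaling (4.34 to 9.15 in spheres, 9.81 to 14.68 in SCDM/FGF) put Kif23 short of it. Over all classes, 4 members rose in this comparison, but 1 without rescaling and 7 without SCDM/FGF replicate 1. In SCDM/FGF against SCDM no mitotic kinesin rose or fell under limma with the fold limit, while 6 of 11 had an unadjusted p under 0.05 and 4 an adjusted p under it; 5.73% of all genes rose and 4.04% fell. The fold changes of the class ran from -0.77 (Kif23, adjusted p = 0.0136) to 0.06 (Kif18a). Against spheres, FIBCL had 8 members lower and none higher (median -1.55), beside 12.5% and 15.5% of all genes higher and lower; Kif14, Kif15 and Kif18a, with -0.63, -0.93 and -0.82, were short of the fold limit. Against SCDM/FGF all 11 fell (median -2.48), beside 12.0% and 15.8% of all genes.

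Other genes of cell division moved alongside. Of 25 spindle assembly and mitotic regulators, 22 fell and none rose in FIBCL against SCDM (median -2.93), and 18 rose and none fell in SCDM against spheres (median 1.23). Of all genes, 13.2% rose and 16.2% fell in the first comparison, and 6.94% and 5.46% in the second. The 3 that did not fall in FIBCL were Ckap2 (-0.87), Ckap5 (-0.51) and Numa1 (-0.84), of which Ckap5 and Numa1 also serve interphase microtubules or nuclei. Of 8 proliferation markers, 7 fell in FIBCL, among them Cdk1 (-5.45), Top2a (-5.30) and Mki67 (-4.25). The replication clamp Pcna was the exception, at 91.8, 93.0 and 91.5 scaled TPM in FIBCL against 102, 105 and 114 in SCDM. The macrophage and mesenchymal sums given above were highest in SCDM and SCDM/FGF too: 12 of 12 macrophage markers rose in SCDM against spheres and 11 fell in FIBCL against SCDM, with Csf1r, a defining receptor, at 4.28 to 6.82 in spheres, 98.0 to 117 in SCDM and 0.171 to 0.538 in FIBCL, and no marker of either list at 0 throughout a group. Cd68 carried most of the FIBCL sum (152 to 177). Their part in the levels of the mitotic kinesins was not tested.

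Promoters of the mitotic kinesins are shown because genes peaking in mitosis are known to share a short element, the cell cycle genes homology region (CHR), bound by the DREAM and MuvB complexes, often with CCAAT boxes bound by NF-Y a little upstream. Promoter sequences from RefSeq (build GRCm38.p6) were found for 11 of the 12 mitotic kinesins (not Kif20a), and for 52 of the 69 members in all. The 250 bases before the start were searched on both strands for the CHR letters, which are TTTGAA or, in its second form, TTCGAA, and for CCAAT. On the printed strand a reversed CHR reads TTCAAA and a reversed CCAAT box reads as ATTGG. CHR letters were present in 5 of 11 mitotic kinesin promoters (45.5%) against 17.1% of all 32851 promoters, CCAAT in 7 (63.6%) against 33.8%, and both in 3 (27.3%) against 6.02%. These counts include Kif14, Kif2c and Kif4, whose searched bases all lie inside the gene as annotated by GENCODE. Their last 120 bases before the start are chr1:136467728-136467847, chr4:117178773-117178892 and chrX:100625945-100626064. The genes span chr1:136466343-136531511, chr4:117159639-117182639 and chrX:100625737-100727214. The region before the annotated 5′ end of these genes was not searched. In Kif11, Kif15 and Kif22 the CHR letters nearest to the start began 19, 19 and 17 bases before the start. In Kif2c and Kif14, the others with CHR letters, they began 103 and 228 bases before a start that lies inside the annotated gene. In Kif14 the CCAAT, at 92, lies downstream of them. The first 3 sequences below hold the CHR letters of Kif11, Kif15 and Kif22 nearest to the start. Kif23 is shown as a called member without CHR letters in the 250 bases before the start. Bases after the start were not searched. Each sequence is the 120 bases before the start, 5′ to 3′ on the gene's strand, with CHR and CCAAT letters in capitals.
Kif11, chr19:37376262-37376381, plus strand: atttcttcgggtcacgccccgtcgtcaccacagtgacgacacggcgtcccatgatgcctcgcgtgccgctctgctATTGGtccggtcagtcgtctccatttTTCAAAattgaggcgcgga
Kif15, chr9:122950961-122951080, plus strand: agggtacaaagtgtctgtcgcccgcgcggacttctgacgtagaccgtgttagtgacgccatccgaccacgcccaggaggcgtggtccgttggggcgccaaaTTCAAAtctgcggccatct
Kif22, chr7:127042421-127042540, minus strand: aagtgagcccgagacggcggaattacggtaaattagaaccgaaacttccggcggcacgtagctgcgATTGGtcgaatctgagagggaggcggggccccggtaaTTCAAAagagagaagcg
Kif23, chr9:61946800-61946919, minus strand: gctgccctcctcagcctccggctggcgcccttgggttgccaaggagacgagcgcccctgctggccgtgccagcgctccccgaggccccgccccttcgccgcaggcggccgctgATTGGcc

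In Kif11 and Kif22 an ATTGG begins 45 and 54 bases before the start, upstream of the CHR letters. The Kif23 window holds ATTGG beginning 7 bases before the start. For comparison, the 9 promoters found for 7 axonal transport kinesins held CHR letters in 1 and CCAAT in 4, and none held both. The 15 promoters of 13 other kinesins held CHR letters in 3 (20.0%), CCAAT in 4 (26.7%) and both in 3 (20.0%), and the 8 promoters of other tubulins held them in 2 (25.0%), 5 (62.5%) and 2 (25.0%), so CCAAT and the pair were about as frequent in other tubulins as in mitotic kinesins. These matches describe letters only.

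Axonal transport kinesins, 10 genes that were all tested, went the other way in part. From SCDM to FIBCL 4 rose (Kif5a, Kif5c, Kif1a and Kif21a) and none went down past the limits, and the median log2 fold change was 0.99, while 13.2% of all genes tested rose and 16.2% fell, with a median of -0.07. Kif21b, which rounds to 1.0 (adjusted p = 4.97e-06), was just short of the limit. The count was 6 with quantile normalization, a pseudocount of 0.1 or without FIBCL replicate 3. It was 3 without rescaling or without SCDM replicate 1. The counts of the mitotic and the axonal kinesins are set side by side as description, since no test between the classes was made.

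The Kif5 genes encode the heavy chain of conventional kinesin, the main carrier of fast axonal transport; Kif5b is expressed in most cells, Kif5a and Kif5c mainly in neurons. Kif5c (chr2:49619298-49774778 in GRCm38, matched by gene ID) was listed at 1.47, 0.752 and 1.93 scaled TPM in spheres, 0.952, 2.46 and 1.68 in SCDM, 2.82, 0.604 and 1.32 with SCDM/FGF, and 68.4, 71.0 and 66.7 in FIBCL. Kif5a (chr10:127225696-127263348) stood at 0.711, 0.594 and 0.874, at 0.590, 0.551 and 0.690, at 1.20, 0.725 and 0.579, and at 20.1, 18.3 and 18.8 in the same order of groups. For both genes the control groups overlapped one another and FIBCL stood apart. Kif5c rose by a log2 fold change of 4.73 (SE 0.303, adjusted p = 6.1e-08) and Kif5a by 3.64 (SE 0.126, adjusted p = 3.1e-10) in FIBCL against SCDM.

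Kif5b overlapped between FIBCL and SCDM: 42.4, 40.2 and 44.3 scaled TPM in spheres, 47.0, 54.8 and 47.7 in SCDM, 54.1, 51.1 and 53.0 with SCDM/FGF, and 49.7, 48.1 and 49.6 in FIBCL. From SCDM to FIBCL its log2 fold change was -0.02 (adjusted p = 0.813), and it became 0.05 with quantile normalization and -0.41 without rescaling of TPM, where the median of all genes was -0.401. The makeup of the family therefore differed between the groups. Kif5b made up 95.6% ± 1.06 (SD, n = 3) of the summed Kif5 TPM in SCDM and 35.9% ± 0.873 in FIBCL, where Kif5c made up 50.2% ± 1.31 and Kif5a 13.9% ± 0.617. In spheres and SCDM/FGF the share of Kif5b was 95.3% ± 1.36 and 95.7% ± 2.31.

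Kif1a (chr1:93015464-93101951) carries synaptic vesicle precursors along axons. It was the most abundant transport kinesin in FIBCL, at 96.6, 90.1 and 88.3 scaled TPM, against 36.8, 32.9 and 38.9 in spheres, 26.0, 28.7 and 24.8 in SCDM and 20.1, 16.5 and 19.3 in SCDM/FGF. Unlike the neuronal Kif5 genes it was well above 10 scaled TPM in every group. Its log2 fold change was 1.75 in FIBCL against SCDM (SE 0.0854, adjusted p = 5.59e-09). Its relative Kif1b was at 42.8 to 45.0 in FIBCL and 20.7 to 22.9 in SCDM, and its log2 fold change of 0.97 (adjusted p = 9.8e-08) was just short of the limit.

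Kif21a and Kif21b are kinesins that also restrain microtubule growth. Kif21a was listed at 6.33, 6.14 and 7.43 in spheres, 4.41, 7.26 and 7.32 in SCDM, 16.3, 15.2 and 9.16 with SCDM/FGF, and 14.6, 16.0 and 13.7 in FIBCL. The first and second SCDM/FGF libraries lay near the FIBCL levels, the third lay below every FIBCL library, and the first SCDM library was the lowest. Kif21a rose in FIBCL against SCDM (1.13, SE 0.209, adjusted p = 0.00046), but the value was 0.92 without SCDM replicate 1 and 0.76 without rescaling of TPM, both short of the limit. Kif21b rose in SCDM against spheres (1.53, adjusted p = 3.76e-07), from 0.720 to 0.866 up to 3.83 to 4.67 scaled TPM, and stood at 8.82 to 10.0 in FIBCL. The kinesin-2 genes Kif3a, Kif3b and Kif3c, which serve cilia as well as axons, had log2 fold changes of 0.50, 0.60 and -0.13 in FIBCL against SCDM. Antisense exons of 1110002L01Rik cover 35.3% of Kif3c.

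**Figure D2:**
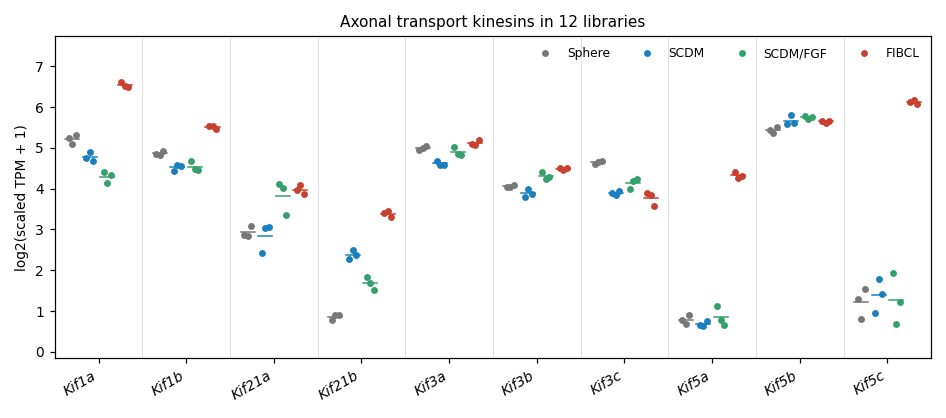
Level of each axonal transport kinesin as log2(scaled TPM + 1), with a point per library, a bar at the mean of 3 and colours for groups. Kif5a and Kif5c stand apart in FIBCL (18.3 to 20.1 and 66.7 to 71.0 scaled TPM), whereas Kif5b lies between 40.2 and 54.8 in all 12 libraries.

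Against SCDM/FGF, 4 axonal transport kinesins rose in FIBCL (Kif1a 2.24, Kif21b 1.71, Kif5a 3.47 and Kif5c 4.84) and none fell, and against spheres 5 rose (Kif1a 1.32, Kif21a 1.05, Kif21b 2.52, Kif5a 3.54 and Kif5c 4.90) and none fell; these comparisons share the FIBCL libraries. Deposited TPM without rescaling put Kif1a (37.61 to 46.26 in spheres, 67.2 to 80.73 in FIBCL) short of the limit against spheres. The same held for Kif21a (7.02 to 8.84 and 10.41 to 13.01). Of all genes, 12.0% rose and 15.8% fell against SCDM/FGF, and 12.5% and 15.5% against spheres. Kif21b was the only axonal transport kinesin of the 10 that rose in SCDM against spheres, and none fell, beside 6.94% and 5.46% of all genes. In SCDM/FGF against spheres and against SCDM none of the 10 rose or fell under limma with the fold limit, with 7 and 6 at an unadjusted p under 0.05, 7 and 5 at an adjusted p under it, and log2 fold changes of -0.92 to 0.90 and -0.71 to 0.98; 7.39% and 5.73% of all genes rose in these comparisons, and 4.73% and 4.04% fell.

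Motors need cargo adaptors. Of 16 kinesin light chains, minor kinesins and adaptors, 6 rose and 1 fell in FIBCL against SCDM (median 0.44). Mapk8ip2, a JIP scaffold that links kinesin-1 to cargo, was listed at 0.0283 to 0.0571 scaled TPM in SCDM and 12.6 to 13.8 in FIBCL (3.78). It passed the filter only through FIBCL, so the 6 hold a gene kept for its level there. The light chain Klc3 rose by 2.22 and Mapk8ip1 by 1.85, while Kifc3, a minus-end motor of epithelial junctions, fell by 1.37 on the log2 scale. Of 19 dynein and dynactin genes, the motor that runs back towards the cell body, 3 rose (Dynlt1b 1.61, Dynll2 1.54 and Dctn4 1.04) and 1 fell (Nde1, -1.34, a dynein regulator also needed in dividing progenitors). Of all genes tested, 13.2% rose and 16.2% fell in this comparison, so the share of dynein and dynactin genes that rose was near the background and the share that fell was below it.

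Among other kinesins, 11 of 16 were tested, and in FIBCL against SCDM 3 rose and 1 fell, beside 13.2% and 16.2% of all genes. Of the 3, Kif19a and Kif26b passed the filter only through FIBCL. Kif26a and Kif26b, kinesins thought to lack motor activity, were low in the controls. Kif26a was at 0.695, 1.74 and 0.756 scaled TPM in spheres, 0.190, 0.168 and 0.246 in SCDM, 1.05, 1.03 and 1.53 with SCDM/FGF, and 6.32, 6.77 and 6.39 in FIBCL (2.64, adjusted p = 6.46e-08). Kif26b was at 0.635, 0.428 and 0.554, at 0.686, 1.36 and 1.32, at 0.568, 0.413 and 0.468, and at 7.01, 6.75 and 6.41 (1.88, adjusted p = 1.45e-07). FIBCL stood above every other library for both. Kif19a, a depolymerising kinesin of ciliary tips, rose from 0.305, 0.0841 and 0.161 in SCDM to 1.62, 2.14 and 2.43 in FIBCL (1.37, adjusted p = 1.87e-06), with 0.474, 0.472 and 0.596 in spheres and 0.294, 0.443 and 0.569 in SCDM/FGF. None of the 3 tested ciliated cell markers of a list of 8 rose or fell in that comparison, 1 had an unadjusted p under 0.05, and the sum of all 8 was 5.98 to 7.77 in SCDM and 5.11 to 5.53 in FIBCL.

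Kif16b, a kinesin that moves early endosomes, had a level that stepped down through the groups: 34.5, 33.4 and 35.9 in spheres, 18.6, 18.1 and 18 in SCDM, 12.9, 12.7 and 12.2 with SCDM/FGF, and 5.50, 5.91 and 5.40 in FIBCL. No pair of groups overlapped. It fell in FIBCL against SCDM (-1.55, SE 0.0549, adjusted p = 3.87e-10) and in SCDM/FGF against spheres (-1.39, adjusted p = 4.46e-09). The abundant Kif1c, a broadly expressed vesicle motor, was at 56.0, 56.2 and 57.2 in spheres, 58.5, 62.3 and 59.7 in SCDM, 58.3, 53.9 and 56.3 with SCDM/FGF and 42.8, 41.0 and 41.6 in FIBCL (-0.51). Kif2a, the depolymerising relative of Kif2c that also acts in interphase and in axons, stood at 17.8, 19.8 and 20.0, at 19.3, 17.9 and 17.0, at 19.6, 17.8 and 20.4, and at 17.8, 18.5 and 21.5. All groups overlapped for Kif2a, and its log2 fold change of 0.09 from SCDM to FIBCL (adjusted p = 0.382) became -0.29 without rescaling. Exons of Dimt1 on the opposite strand cover 19.2% of Kif2a. Kif6, Kif12, Kif17, Kif27 and Kif28 were not tested, and none of them exceeded 1.31 scaled TPM in a library.

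Tubulin genes form the largest mRNA pool of the set. Beta-tubulin isotypes are nearly alike along the body of the protein and differ most at the end of the coding sequence, the acidic tail on the microtubule surface that motors, MAPs and tail-modifying enzymes read. The coding ends of 6 isotypes are shown to make this visible. Each runs from the same base, counted from the start codon, to the stop codon of a GENCODE M21 transcript (GRCm38), 54 bases in Tubb5 and 72 in Tubb3, and capitals mark bases that differ from Tubb5 at the same count or that lie past the last base of Tubb5, with no alignment gaps allowed.
Tubb5, gene at chr17:35833921-35838306, minus strand: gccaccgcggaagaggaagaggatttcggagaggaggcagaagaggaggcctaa
Tubb4b, gene at chr2:25222160-25224702, minus strand: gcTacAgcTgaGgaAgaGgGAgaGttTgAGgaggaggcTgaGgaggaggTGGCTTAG
Tubb2a, gene at chr13:34074274-34078007, minus strand: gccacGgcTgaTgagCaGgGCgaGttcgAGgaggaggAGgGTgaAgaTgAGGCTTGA
Tubb2b, gene at chr13:34126748-34130466, minus strand: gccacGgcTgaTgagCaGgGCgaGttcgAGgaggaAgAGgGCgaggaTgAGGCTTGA
Tubb4a, gene at chr17:57080066-57087782, minus strand: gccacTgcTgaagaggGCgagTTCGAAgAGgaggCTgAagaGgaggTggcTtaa
Tubb3, gene at chr8:123411424-123422015, plus strand: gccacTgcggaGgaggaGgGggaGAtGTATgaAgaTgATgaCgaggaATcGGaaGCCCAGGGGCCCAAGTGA

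Before these ends the coding sequences of the other 5 isotypes match Tubb5 at 82.8% (Tubb3) to 85.2% (Tubb2a) of bases. Within the ends 18 bases (Tubb4a) to 37 bases (Tubb3) are in capitals, those past the end of Tubb5 included. Of all stretches of 100 bases in the transcript used, 36.9% in Tubb2a, 27.7% in Tubb2b, 29.2% in Tubb4b, 65.1% in Tuba1a, 69.5% in Tuba1b and 53.4% in Tuba1c also occur in another gene, so the division of reads among these copies is uncertain. No such stretch of the Tubb3, Tubb4a, Tubb5 or Tuba4a transcript did.

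In FIBCL against SCDM, 3 of 6 neuronal tubulins rose (Tubb3, Tubb4a and Tuba4a) and 1 fell (Tubb2a), beside 13.2% and 16.2% of all genes, so the share that fell was near the background. Tubb3, the isotype long used as a marker of young neurons, was at 5.06, 5.21 and 4.26 scaled TPM in spheres, 12.0, 11.7 and 11 in SCDM, 12.4, 9.92 and 12.7 with SCDM/FGF, and 84.7, 81.8 and 77.3 in FIBCL. Both control media lay above spheres and overlapped each other, and FIBCL lay above all. Tubb3 rose in FIBCL against SCDM (2.71, SE 0.0946, adjusted p = 3.32e-10), in SCDM against spheres (1.11, adjusted p = 2.15e-06) and in SCDM/FGF against spheres (1.11, adjusted p = 2.12e-06). In deposited TPM without rescaling it was at 5.07 to 5.97 in spheres, 11.65 to 12.56 in SCDM and 9.85 to 12.68 in SCDM/FGF. Both differences from spheres are then just short of the limit.

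Tubb4a, found mainly in brain, had no such step in the control media: 8.46, 8.57 and 7.59 in spheres, 6.59, 5.19 and 4.71 in SCDM, 3.59, 3.45 and 4.56 with SCDM/FGF, and 84.5, 84.5 and 79.2 in FIBCL. Its level was highest in FIBCL and lower in both control media than in spheres. Tubb4a rose by 3.70 in FIBCL against SCDM (SE 0.114, adjusted p = 1.24e-10), and its log2 fold change in SCDM against spheres was -0.51. Tuba4a, an alpha-tubulin of neurons and other differentiated cells, was at 11.7, 13.1 and 11.4 in spheres, 8.11, 7.18 and 6.27 in SCDM, 17.8, 25.3 and 31.4 with SCDM/FGF, and 28.3, 38.7 and 32.8 in FIBCL. It rose in FIBCL against SCDM (2.06, adjusted p = 8.35e-07) and in SCDM/FGF against SCDM (1.63, SE 0.178, adjusted p = 1.89e-05); exons of Stk16 on the opposite strand cover 37.3% of it.

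Tubb2a and Tubb2b are the beta-tubulins abundant in developing neurons and glia. Tubb2a was at 80.0, 83.2 and 75.6 in spheres, 213, 204 and 213 in SCDM, 92.9, 103 and 95.6 with SCDM/FGF, and 87.1, 90.5 and 82.3 in FIBCL. SCDM was the group that stood apart. Tubb2a rose in SCDM against spheres (1.39, adjusted p = 3.08e-09), and fell in SCDM/FGF against SCDM (-1.11, adjusted p = 1.75e-08) and in FIBCL against SCDM (-1.27, SE 0.0519, adjusted p = 1.27e-09). Tubb2b fell in SCDM/FGF against SCDM as well (-1.10, adjusted p = 3.71e-09), from 139 to 148 down to 63.5 to 68.3.

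The most abundant alpha-tubulin, Tuba1a, differed little: 612, 626 and 584 in spheres, 673, 681 and 647 in SCDM, 726, 765 and 812 with SCDM/FGF, and 591, 635 and 612 in FIBCL (-0.12 in FIBCL against SCDM, adjusted p = 0.0397). Tuba1b, a general isotype, was at 314, 309 and 293, at 454, 462 and 475, at 527, 561 and 513, and at 289, 283 and 266 (-0.73, and -1.13 without rescaling). Tubb5, the main beta-tubulin of dividing cells, had the same order of groups: 341, 339 and 319 in spheres, 456, 446 and 454 in SCDM, 497, 555 and 514 with SCDM/FGF, and 289, 279 and 284 in FIBCL (-0.67, and -1.07 without rescaling). Tuba8 was listed at 0, 0.0350 and 0.0672 in spheres, 0.124, 0.0280 and 0.170 in SCDM, 0.137, 0.282 and 0.0305 with SCDM/FGF, and 9.38, 10.3 and 10.7 in FIBCL (3.33, adjusted p = 1.92e-10). It was the only one of 6 tested other tubulins that rose in FIBCL against SCDM, and none fell, beside 13.2% and 16.2% of all genes, and it passed the filter only through FIBCL; antisense exons of Gm15856 cover 16.3% of it. Tuba3a and Tuba3b were listed at 0 throughout, and Tubb1, a platelet isotype, at no more than 0.280.

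As a share of all beta-tubulin TPM, Tubb3 made up 0.673% ± 0.0482 (SD, n = 3) in spheres, 1.11% ± 0.0443 in SCDM, 1.13% ± 0.187 with SCDM/FGF and 9.50% ± 0.302 in FIBCL. Tubb4a made up 1.14% ± 0.035, 0.531% ± 0.0911, 0.372% ± 0.0648 and 9.67% ± 0.202. Tubb5 stayed the largest share, at 43.6% ± 0.262 in SCDM and 33.2% ± 0.801 in FIBCL.

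**Figure D3:**
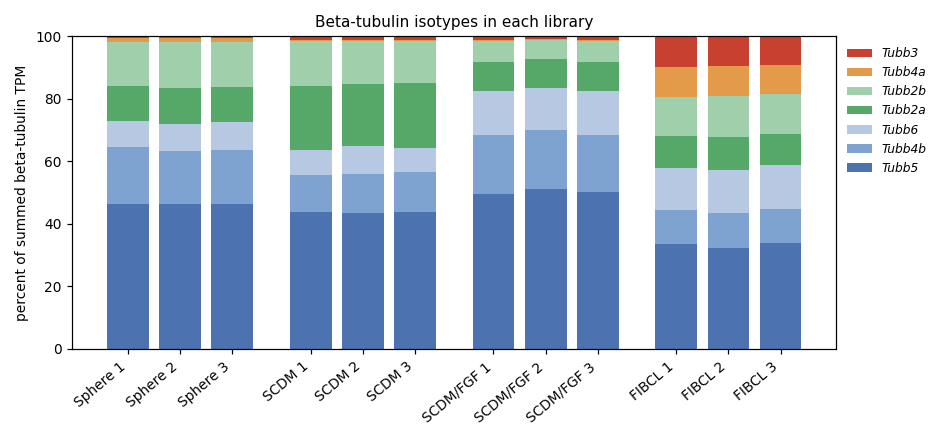
Share of each beta-tubulin isotype in the summed beta-tubulin TPM, in percent, with a stacked bar per library. Tubb3 and Tubb4a take 9.21% to 9.81% and 9.43% to 9.79% in the FIBCL libraries, while Tubb2a takes 19.8% to 20.6% in the SCDM libraries, more than in any other library.

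Stathmins bind tubulin dimers and favour disassembly; Stmn1 is broad and high in proliferating cells, whereas Stmn2, Stmn3 and Stmn4 are membrane-anchored and neuronal. Stmn2, a protein of growing axon tips encoded at chr3:8509360-8561606, was at 0.440, 0.909 and 0.588 scaled TPM in spheres, 1.89, 1.81 and 1.72 in SCDM, 2.43, 2.14 and 3.04 with SCDM/FGF, and 192, 184 and 184 in FIBCL. The 4 groups did not overlap. Stmn2 rose in FIBCL against SCDM (6.06, SE 0.116, adjusted p = 3.3e-12) and in SCDM/FGF against spheres (1.10, adjusted p = 1.21e-05).

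Stmn4 (chr14:66344296-66361680) showed the largest difference of any member: 1.75, 0.568 and 0.428 in spheres, 0.181, 0.850 and 0.586 in SCDM, 0, 0 and 0.325 with SCDM/FGF, and 160, 184 and 157 in FIBCL (6.79 against SCDM, SE 0.243, adjusted p = 4.09e-10). Stmn3 was at 0.830, 1.36 and 0.790, at 0.752, 0.299 and 0.539, at 0.314, 0.141 and 0.0712, and at 76.5, 83.2 and 79.7 (5.73, adjusted p = 2.22e-11). For both, every control library was under 2 scaled TPM.

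Stmn1 did not rise: 113, 118 and 116 in spheres, 136, 125 and 145 in SCDM, 70.1, 89.0 and 89.5 with SCDM/FGF, and 89.7, 91.1 and 104 in FIBCL (-0.51 against SCDM, adjusted p = 0.000479). Its share of the summed stathmin TPM was 97.9% ± 0.205 (SD, n = 3) in SCDM and 18% ± 1.59 in FIBCL, where Stmn2 held 35.3% ± 1.56 and Stmn4 31.6% ± 2.06. Of its stretches of 100 bases, 26.1% also occur in another gene.

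Structural MAPs bind along the microtubule wall. In FIBCL against SCDM 3 of 6 tested rose (Mapt, Map2 and Map1b) and none fell, beside 13.2% and 16.2% of all genes. Mapt (chr11:104231390-104332090) encodes tau, the MAP of axons, and was at 2.22, 0.586 and 1.09 scaled TPM in spheres, 1.04, 0.504 and 0.416 in SCDM, 0.470, 0.594 and 0.681 with SCDM/FGF, and 10.1, 12.0 and 10.5 in FIBCL (2.86, SE 0.227, adjusted p = 3.87e-07). Map2 (chr1:66175273-66442583), the MAP of dendrites and cell bodies, was at 6.28, 4.96 and 5.44, at 4.71, 6.54 and 4.45, at 5.26, 3.32 and 3.09, and at 34.4, 33.6 and 42.7 (2.61, SE 0.178, adjusted p = 1.04e-07). For both genes spheres, SCDM and SCDM/FGF overlapped at least in part, and FIBCL lay above.

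Map1b, expressed early in growing axons and also by glia, was at 28.9, 24.7 and 30.2 in spheres, 18.1, 22.4 and 18.2 in SCDM, 32.4, 24.7 and 25.2 with SCDM/FGF, and 62.5, 58.9 and 62.1 in FIBCL (1.60, SE 0.114, adjusted p = 1.52e-07). Map4, the general MAP of non-neuronal cells, was the most abundant of the class: 125, 110 and 125 in spheres, 132, 134 and 141 in SCDM, 124, 121 and 117 with SCDM/FGF, and 140, 133 and 134 in FIBCL. From SCDM to FIBCL its log2 fold change was 0.00 (adjusted p = 0.966), with -0.40 without rescaling. Map1a, of mature neurons, had 0.53 (adjusted p = 0.00111).

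Dcx, the doublecortin of migrating and newborn neurons, was all but unlisted: no library exceeded 0.0857 scaled TPM, and the FIBCL libraries were at 0, 0.0739 and 0. It failed the filter and was not tested. Its relative Dclk1 was at 53.2, 51.5 and 52.6 in spheres, 58.2, 60.5 and 54.6 in SCDM, 46.6, 41.3 and 41.6 with SCDM/FGF, and 41.4, 42.3 and 41.7 in FIBCL (-0.46 against SCDM). So Tubb3, Map2 and Mapt rose in FIBCL while Dcx stayed at or near 0 in all groups.

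CRMPs, which carry tubulin to growing axons, and Gap43, a membrane protein of growth cones that Schwann cells also make, changed in both directions: 2 of 5 rose and 2 fell in FIBCL against SCDM, beside 13.2% and 16.2% of all genes. Dpysl5 passed the filter only through FIBCL. It was at 0.695, 0.691 and 0.613 in spheres, 0.638, 0.224 and 0.321 in SCDM, 0.284, 0.363 and 0.305 with SCDM/FGF, and 15.3, 15.1 and 15.3 in FIBCL (3.55, SE 0.111, adjusted p = 1.34e-10). Dpysl4 was at 6.30, 5.86 and 6.60, at 2.93, 2.32 and 2.66, at 0.921, 0.735 and 1.81, and at 10.9, 9.41 and 9.25 (1.58, adjusted p = 3.37e-06). Its libraries in both control media lay below the spheres, and it fell in SCDM/FGF against spheres (-1.78, adjusted p = 3.27e-06).

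Dpysl3 and Gap43 were abundant in the controls and fell. Dpysl3 was at 70.0, 66.3 and 71.9 in spheres, 119, 127 and 118 in SCDM, 98.6, 100 and 85.1 with SCDM/FGF, and 41.4, 41.1 and 39.1 in FIBCL (-1.56, SE 0.0626, adjusted p = 1.07e-09). Gap43 (chr16:42248442-42340651) was at 149, 167 and 154 in spheres, 201, 181 and 196 in SCDM, 85.2, 77.7 and 99.2 with SCDM/FGF, and 71.0, 77.6 and 71.0 in FIBCL. Gap43 fell in FIBCL against SCDM (-1.38, SE 0.0823, adjusted p = 3.19e-08), in FIBCL against spheres (-1.09) and in SCDM/FGF against SCDM (-1.14, adjusted p = 6.19e-07). Its level in SCDM/FGF came within reach of FIBCL, with a log2 fold change of -0.25 between them. The glial and mesenchymal sums were also lowest in FIBCL, and their part in the levels of Gap43 and Dpysl3 was not tested. The fifth gene, Dpysl2, had -0.07 (adjusted p = 0.456).

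**Figure D4:**
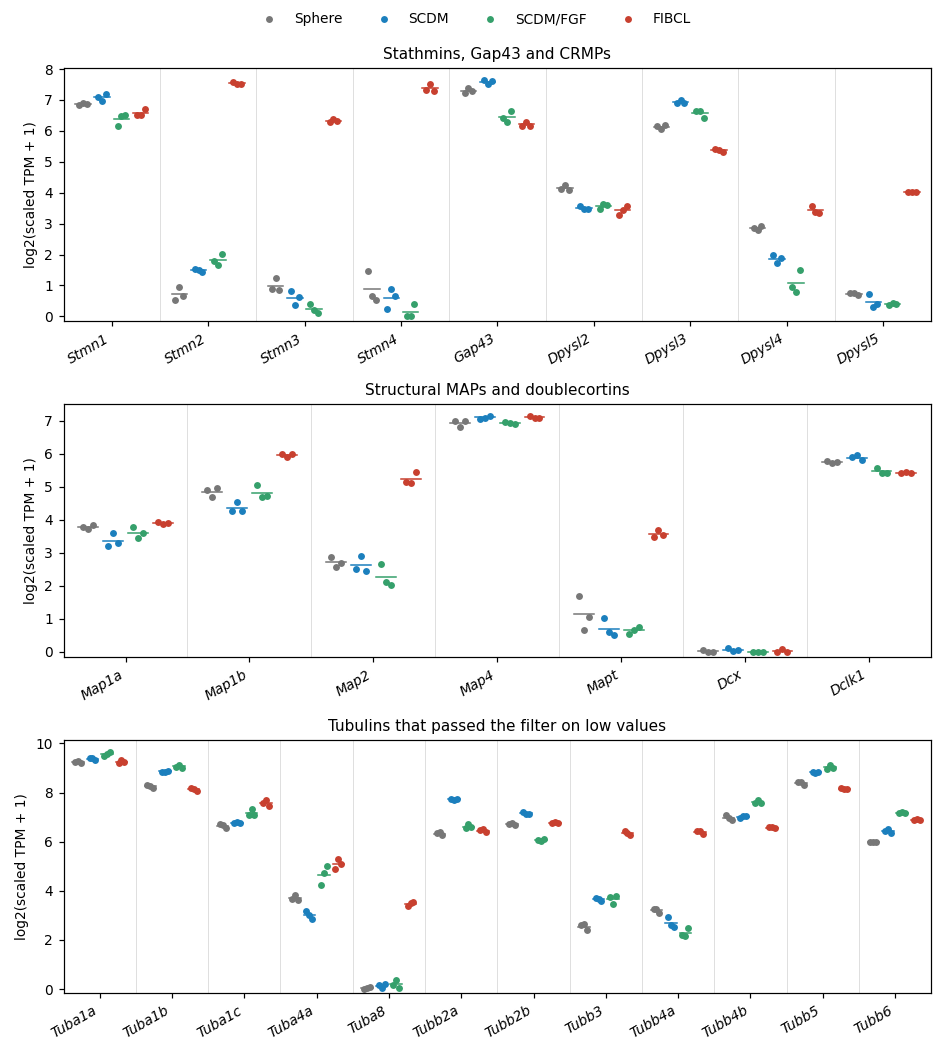
Levels of stathmins, Gap43 and CRMPs (top), structural MAPs and doublecortins (middle) and tested tubulins (bottom) as log2(scaled TPM + 1), with a point per library, a bar at the mean of 3 and colours for groups. Stmn2, Stmn3 and Stmn4 stand highest in FIBCL (184 to 192, 76.5 to 83.2 and 157 to 184 scaled TPM), Dcx is near 0 in every library, and Gap43 is lowest in FIBCL.

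Of 12 pan-neuronal markers outside the microtubule genes, 10 were tested. Snap25, Elavl3, Ina and Nefh passed the filter only through FIBCL. Of the others Nefl (5.99), Nefm (5.82), Syp (4.95), Syn1 (3.97), Uchl1 (2.98) and Syt1 (2.10) rose in FIBCL against SCDM, while Nefm, Nefl, Syt1 and Uchl1 fell in SCDM against spheres. Of all genes, 13.2% rose in the first comparison and 5.46% fell in the second. Of the same 12, Rbfox3, the antigen of mature neurons, was at 1.46, 0.862 and 0.526 scaled TPM in FIBCL and did not pass the filter.

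Genes that shape the microtubule without being motors or subunits were called at rates mostly near or below those of all genes, of which 13.2% rose and 16.2% fell. In FIBCL against SCDM none of 13 tested end-binding and minus-end proteins and none of 11 gamma-tubulin and nucleation genes rose or fell under limma with the fold limit (medians 0.48 and -0.24), with 12 and 9 at an unadjusted p under 0.05, although Camsap1 (0.94, adjusted p = 8.72e-08) and Nav2 (0.92, adjusted p = 0.000217) came close. Of 8 severing enzymes, Fignl1 (-2.08) and Fign (-1.92) fell and none rose. Of 17 tested tubulin-modifying enzymes 3 rose, namely the polyglutamylases Ttll7 (2.70) and Ttll1 (1.48) and the detyrosinating Vash1 (1.22), and 2 fell, Ttll5 (-1.55) and Agbl2 (-1.54). Of 19 other tested microtubule-associated proteins 2 rose and none fell: Crmp1, a CRMP whose symbol lies outside the naming rule, went from 0.420 to 0.520 up to 110 to 113 scaled TPM (6.26, adjusted p = 2.62e-11), and Map7, a recruiter of kinesin-1, rose by 1.78.

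**Figure D5:**
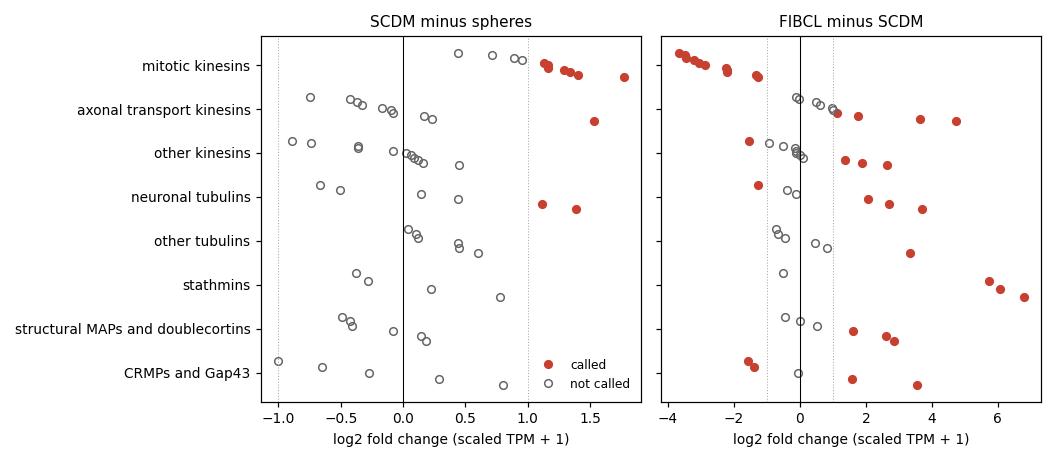
Log2 fold changes of the 59 tested members by class, SCDM minus spheres at left and FIBCL minus SCDM at right (the axes differ in range); filled points rose or fell, open points did not pass both limits, and dotted lines mark a log2 fold change of 1 in size. Mitotic kinesins lie right of 0 at left (0.44 to 1.77) and left of 0 at right (-3.68 to -1.26), where stathmins reach 6.79.

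Over all 59 tested members, 10 rose and none fell in SCDM against spheres, 4 rose and 2 fell in SCDM/FGF against spheres, and 1 rose and 3 fell in SCDM/FGF against SCDM. Without rescaling of TPM, 9 rose and 2 fell in SCDM against spheres, and 1 rose and 5 fell in SCDM/FGF against spheres, which turned the balance of the latter. Of all genes, 6.94% rose and 5.46% fell in SCDM against spheres, 7.39% and 4.73% in SCDM/FGF against spheres, and 5.73% and 4.04% in SCDM/FGF against SCDM, so the members' shares in both SCDM/FGF comparisons were near or below the background. The comparison of SCDM/FGF with SCDM, in which bFGF was the sole addition, held Tuba4a as the member that rose, and Gap43, Tubb2a and Tubb2b as those that fell. In SCDM/FGF against spheres Kif23, Tubb3, Tubb6 (1.19) and Stmn2 rose, and Kif16b and Dpysl4 fell. In FIBCL, 18 rose and 14 fell against SCDM/FGF, and 19 rose and 10 fell against spheres; without rescaling 14 rose and 15 fell against spheres. Of all genes, 12.0% rose and 15.8% fell against SCDM/FGF, and 12.5% and 15.5% against spheres, where the share of members that fell was near the background. In FIBCL against SCDM/FGF the 14 that fell were the 11 mitotic kinesins, Kif16b, Dpysl3 and Tubb4b, a broadly expressed beta-tubulin (-1.05).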

How the data were processed

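Poly(A) RNA libraries (TruSeq) were sequenced as pairs by the authors, trimmed with SeqPrep and Sickle, aligned with TopHat in an orientation mode and quantified with RSEM; the submitters' processing notes also name Cufflinks. The genome build and the versions are not given in the sources used here, and neither is strand use in counting. The values the authors deposited are TPM, 1 table of 12 libraries, although the study's methods speak of fragments per kilobase; each column sums to 899295 to 994845. Depth is unknown, so no counting intervals are given.

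TPM were scaled by a trimmed mean of log2 ratios (30% trimmed at each end) over 8434 genes at 5 TPM or more in all 12 libraries. Genes at 1 TPM or more in 3 libraries (16016) were tested on log2(scaled TPM + 1) with limma 3.58.1 (R 4.3.3; trended variance, 1 model of the 4 groups, Benjamini-Hochberg adjustment within each of the comparisons), after the script was tested on simulated data. The list of glial markers leaves out 1 gene that is not reported here. The members, gene lists and classes were chosen with earlier results of these data known. Values in every library are given for up to 4 members per class with the largest change in FIBCL against SCDM, up to 2 with the highest mean, those that moved against their class, and a fixed set of well-known members; others were named after their values were seen. Alternatives covered scaling, pseudocount, filter, thresholds, a replicate block and each left-out library. Gene positions come from GENCODE (GRCm38), promoters from RefSeq; all 69 gene IDs matched.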

Additional observations from a re-analysis of the deposited data

How the results depend on the processing

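Counts of changed members moved by more than 1.5 times mainly with the limits on a call. With adjusted p alone, 52 members changed in FIBCL against SCDM/FGF, 50 in FIBCL against spheres, 40 in SCDM against spheres (11 mitotic and 6 axonal transport kinesins), 43 in SCDM/FGF against spheres, 32 in SCDM/FGF against SCDM, and 8 axonal transport kinesins in FIBCL against SCDM. With a log2 fold change of at least 1.5, 2 changed in SCDM against spheres (1 mitotic kinesin), 1 in SCDM/FGF against spheres and 1 in SCDM/FGF against SCDM. Of all genes tested, 43.1% to 71.7% changed with adjusted p alone and 4.85% to 17.9% with the limit of 1.5, over the comparisons. A pseudocount of 0.1 gave 17 in SCDM against spheres, 13 in SCDM/FGF against spheres and 10 in SCDM/FGF against SCDM, beside 17.5%, 16.7% and 13.7% of all genes, and one of 0.5 gave 11 in SCDM/FGF against spheres, beside 14.2%. In SCDM/FGF against SCDM, 3 rose and 7 fell with 0.1, and 3 rose and 3 fell with 0.5. In SCDM against spheres, 3 fell with 0.1 and 2 with 0.5. Without rescaling, the median of all genes was -0.401 in FIBCL against SCDM, against -0.072 with it. Values near 0 changed sign: Kif2a was -0.29 and Map4 -0.40 without rescaling, Kif5b was 0.05 with quantile normalization, and Map4 was -0.00 with median scaling. Over the libraries left out in turn, Kif5b ran from -0.06 to 0.05 (without SCDM replicates 1 and 2), and Map4 from -0.02 (without SCDM replicate 1, and without FIBCL replicate 1) through -0.01 (without SCDM replicate 2) to 0.03 (without SCDM replicate 3). Kif21a fell short of the limit at 0.76 without rescaling and 0.92 without SCDM replicate 1; Tuba1b (-1.13) and Tubb5 (-1.07) passed it without rescaling. Leaving out any library in turn moved no total of changed members by more than 1.5 times, but members that rose in SCDM/FGF against spheres went from 4 to 7 without SCDM/FGF replicate 1, and those that rose in SCDM/FGF against SCDM from 1 to 2 without SCDM replicate 2, SCDM replicate 3 or SCDM/FGF replicate 3. Members that fell in SCDM against spheres went from 0 to 1 without Sphere replicate 2, SCDM replicate 1, SCDM replicate 3 or FIBCL replicate 3. Without rescaling, the split of members that rose and fell was 1 and 5 in SCDM/FGF against spheres, 14 and 15 in FIBCL against spheres and 9 and 2 in SCDM against spheres. Libraries that share a replicate number did not deviate together (r from -0.121 to 0.0976), so the numbers pair nothing; with the replicate block, 34 members changed in FIBCL against SCDM, as without it. Of the single-gene alternatives, 790 kept direction and side of the limits.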
